A study of Mus musculus with 6 samples.

Results

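The SOCS family comprises Socs1 to Socs7 and Cish, the genes of the suppressors of cytokine signalling and of the related protein CIS. Members were the rows of the deposited table whose gene symbol equalled one of these names, and all 8 were found among 55487 genes. They were compared in BMDC, which are mouse dendritic cells grown in culture from precursors in the marrow. One group is labelled as given NanoCa, which the series title describes as a lipid nanoparticle with calcium crystals, and the Mock group as untreated. The protocol gives NanoCa at 100 μM, and it stands on the Mock samples too, so the treatment label was followed. The labels give female mice of 4 to 8 weeks and 1 batch date for every sample, and a medium of DMEM with 10% serum. No strain, no cytokine added to the culture, no exposure time and no statement that replicates were separate cultures or animals is given, so the spread between replicates may be technical. The labels give 3 samples per group, but each replicate 3 column was a scaled mean of the other two columns (by 1.0011 in NanoCa and 1.001876 in Mock), so the values below come from 2 libraries per group.

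SOCS proteins are brakes on cytokine receptors. A cytokine activates Janus kinases (JAKs) on its receptor, the JAKs phosphorylate STAT transcription factors, and STATs switch on SOCS genes, whose products return to the receptor. Each carries an SH2 domain, which binds phosphotyrosine, and a SOCS box, which recruits elongins and cullin 5 to mark bound proteins with ubiquitin. SOCS1 and SOCS3 also hold a short kinase inhibitory region that blocks JAKs directly. CIS and SOCS2 bind receptor tails and are classical targets of STAT5, the STAT of the growth factor GM-CSF. SOCS4 to SOCS7 have longer amino-terminal parts and are studied mostly on growth factor receptors. In dendritic cells SOCS1 is known to restrain responses to interferons, and in mice the microRNA miR-155 is known to target Socs1.

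Promoter windows from RefSeq (GRCm38.p6, 250 bases before to 50 after the annotated start) were read for 4 of the 8 members. These were Cish, Socs1, Socs3 and Socs4. That count does not show whether windows exist for the other members, Socs6 among them, and none is reported for those. The windows of Cish, Socs1 and Socs3 are shown because these members differed in direction and hold motifs of STAT or interferon-activated factors. Capitals mark matches, searched on both strands, to TTCNNNGAA (the palindrome that STAT dimers bind) or to the core of the interferon-stimulated response element (GAAA, any 2 bases, GAAA). The Cish window is chr9:107296409-107296708 (plus strand), the Socs1 window chr16:10785487-10785786 (minus strand) and the Socs3 window chr11:117969317-117969616 (minus strand).
Cish: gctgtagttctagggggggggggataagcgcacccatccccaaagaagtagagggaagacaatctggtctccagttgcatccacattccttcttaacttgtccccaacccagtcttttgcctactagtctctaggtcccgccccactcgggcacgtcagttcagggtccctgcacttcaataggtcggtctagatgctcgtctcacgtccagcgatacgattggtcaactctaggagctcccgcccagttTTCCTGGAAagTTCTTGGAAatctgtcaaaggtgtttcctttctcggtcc
Socs1: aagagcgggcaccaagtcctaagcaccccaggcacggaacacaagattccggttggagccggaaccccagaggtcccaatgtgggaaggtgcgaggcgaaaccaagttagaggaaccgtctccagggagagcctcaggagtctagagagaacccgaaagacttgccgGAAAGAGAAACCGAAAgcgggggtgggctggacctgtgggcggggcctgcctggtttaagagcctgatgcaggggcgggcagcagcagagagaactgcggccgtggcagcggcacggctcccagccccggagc
Socs3: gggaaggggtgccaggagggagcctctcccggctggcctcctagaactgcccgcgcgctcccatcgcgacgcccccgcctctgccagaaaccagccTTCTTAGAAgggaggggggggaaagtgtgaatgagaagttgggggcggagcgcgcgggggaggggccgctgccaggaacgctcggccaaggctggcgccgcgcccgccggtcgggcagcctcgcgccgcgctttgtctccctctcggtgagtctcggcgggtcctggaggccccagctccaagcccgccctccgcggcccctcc

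The Cish window held 2 matches to TTCNNNGAA, at bases 251 to 259 and 262 to 270, where base 251 is the annotated start. At least 2 such matches were present in 0.457% of 32851 promoter windows of the same length, and at least 1 in 8.30%. The Socs3 window held 1 match, at bases 97 to 105. The Socs1 window held 2 overlapping matches to the response element core, at bases 168 to 177 and 174 to 183, a motif found at least once in 3.44% and at least 2 times in 0.225% of windows. The Socs4 window held neither motif. These matches describe letters in the windows and no binding was measured.

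Values are FPKM (reads scaled by gene length and by the reads of the library), as the authors computed them. Whole reads could be read back from the FPKM steps, and library totals were 22793565 to 31131990 reads. Genes with a mean of at least 1 FPKM over the 4 libraries (11116) were tested with limma on log2(FPKM + 1). Tests were two-sided, p-values were adjusted over those genes by Benjamini-Hochberg, and the threshold was 0.05. A log2 fold change is the NanoCa mean less the Mock mean on that scale, which understates changes of low genes. Their median over all genes tested was -0.17, and with median-of-ratios scaling it was -0.01, so scaling alone moved log2 fold changes by about that much. The groups also differed in transcripts of the sex chromosomes, although the labels give female mice throughout. Xist was at 33.5 and 33.3 FPKM in NanoCa with 1 read in each Mock library, and the Y-linked Ddx3y averaged 13.5 ± 0.863 (NanoCa) and 33.5 ± 1.35 FPKM (Mock; SD, n = 2). The part of this difference in the SOCS values was not tested.

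Of the 7 members tested, 5 were lower in NanoCa (Cish, Socs2, Socs6, Socs3 and Socs4) and 0 were higher, where 49.7% of all genes tested were lower, 21.7% higher and 71.3% either. With median-of-ratios scaling the same 5 members were lower, where 32.8% of genes were lower and 32.9% higher. Socs5 and Socs7 did not pass the test. Socs1 lay under the filter at a mean of 0.773 FPKM, and its values were higher in both NanoCa libraries. Of all 8 members the groups did not overlap for 6, where 86.3% of genes tested did not overlap. Cish, Socs2 and Socs6 were lower by a log2 fold change of at least 1, as were 5.78% of genes tested, and 5.05% were higher by as much. In bulk RNA such as this, fewer cells of a type and less RNA per cell cannot be told apart.

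**Figure D1:**
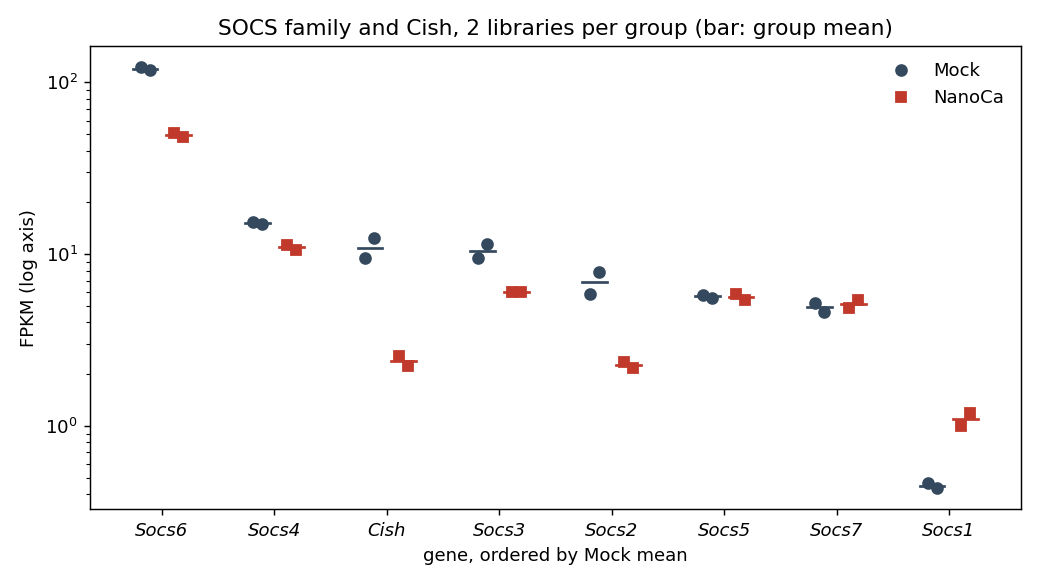
FPKM of the 8 members (log axis) in the 2 Mock libraries (circles) and the 2 NanoCa libraries (squares), with a bar at each group mean, ordered by Mock mean. Cish, Socs2, Socs3, Socs4 and Socs6 sit lower in NanoCa, Socs1 sits higher, and Socs5 and Socs7 overlap.

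Cish, the receptor-binding founder of the family, was at 2.55 and 2.24 FPKM in NanoCa and at 9.48 and 12.4 in Mock. Both NanoCa libraries lay below both Mock libraries, and the Mock mean was 4.56-fold the NanoCa mean (10.9 ± 2.05 against 2.40 ± 0.222, SD, n = 2). The log2 fold change was -1.80 (SE 0.12, limma adjusted p = 4.66e-05), and 154 of the 11116 genes tested had a lower one. Cish had 168 and 140 reads in the NanoCa libraries and 809 and 915 in the Mock libraries. Scaled by library totals, Mock stood 4.51 times as high (exact 95% interval 3.99 to 5.10, counting error only). Annotated exons on the opposite strand overlap those of Cish, from Gm17040 and Gm17041. Whether counting used strand is not given in the sources used here, and both were listed at 0.541 FPKM or less in every library.

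Socs2, which limits growth hormone receptor signalling and shares STAT5 as an inducer, was at 2.34 and 2.16 FPKM in NanoCa and at 5.86 and 7.83 in Mock. The groups did not overlap, and the Mock mean was 3.04-fold the NanoCa mean (log2 fold change -1.26, SE 0.12, limma adjusted p = 0.000211). Its counts of 238 and 209 (NanoCa) and of 774 and 896 (Mock) gave rates 3.01 times as high in Mock (2.71 to 3.35). Cish stood higher than Socs2 in Mock, at 1.62 and 1.58 times its FPKM, and close to it in NanoCa, at 1.09 and 1.04 times. That ordering rests on the length behind each deposited FPKM. Per longest annotated transcript Cish lay below Socs2 in every library, at 5.53 and 7.22 FPKM against 5.86 and 7.83 in Mock and at 1.49 and 1.31 against 2.34 and 2.16 in NanoCa. That transcript of Socs2 is annotated for nonsense-mediated decay (breakdown of the RNA), so this order is not settled either.

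Socs3, the inhibitor of gp130 and G-CSF receptor signalling that STAT3 induces, was at 6.01 and 6.05 FPKM in NanoCa and at 9.54 and 11.4 in Mock. All NanoCa values again lay below all Mock values (log2 fold change -0.70, SE 0.08, limma adjusted p = 0.000498). Its log2 fold change was 0.53 below the median of all genes tested, and 11.7% of genes tested had a lower one. The interval of the ratio of read rates, Mock over NanoCa, was 1.58 to 1.89.

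Socs1, the JAK inhibitor best known for restraining interferon signalling, was the lowest member in both groups. It was at 1.003 and 1.19 FPKM in NanoCa and at 0.464 and 0.433 in Mock, from 70 and 79 reads against 42 and 34. Both NanoCa libraries lay above both Mock libraries, and the ratio of read rates, NanoCa over Mock, was 2.44 (exact 95% interval 1.84 to 3.25, counting error only). On log2(FPKM + 1) the difference was 0.53, with no test under the filter used here. With no filter on low values, limma gave an adjusted p of 0.0127, and 11.6% of the genes in that fit were higher. With limma-voom on the recovered reads of 16612 genes with at least 10 reads, an alternative added after seeing the data, the log2 fold change was 1.46 (adjusted p = 4.04e-06), and of those genes 28.8% were higher and 27.6% lower. FPKM of Cish was 20.4 and 28.5 times that of Socs1 in the Mock libraries and 2.55 and 1.88 times in the NanoCa libraries.

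The 4 members with long amino-terminal parts divided. Socs6, studied on the insulin receptor and on KIT, was at 50.8 and 48.3 FPKM in NanoCa and at 123.0 and 117.9 in Mock, which was 2.43-fold higher by mean. Its groups were far apart and its replicates close (log2 fold change -1.26, SE 0.04, limma adjusted p = 3.78e-06). Socs4, which acts on the epidermal growth factor receptor, was at 11.3 and 10.6 FPKM in NanoCa and at 15.5 and 15.05 in Mock. The groups did not overlap, and the change was small (log2 fold change -0.44, SE 0.05, limma adjusted p = 0.000448), at 0.27 below the median of all genes tested.

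Socs5, another regulator of the epidermal growth factor receptor, was at 5.88 and 5.37 FPKM in NanoCa and at 5.82 and 5.58 in Mock, and the groups overlapped. Socs7, which binds insulin receptor substrates, was at 4.86 and 5.39 in NanoCa and at 5.21 and 4.60 in Mock, and overlapped too. Log2 fold changes were -0.017 (SE 0.06, limma adjusted p = 0.822) and 0.054 (SE 0.08, limma adjusted p = 0.559). The exact 95% intervals of their ratios of read rates, NanoCa over Mock, were 0.915 to 1.06 and 0.974 to 1.11. With quantile normalization and with limma-voom both were called higher, Socs5 at 0.20 (adjusted p = 0.0373) and 0.18 (adjusted p = 0.0292) and Socs7 at 0.27 (adjusted p = 0.0231) and 0.26 (adjusted p = 0.00283). Of all genes, 29.7% were higher and 36.3% lower with quantile normalization, and 35.0% were higher and 33.7% lower with limma-voom.

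**Figure D2:**
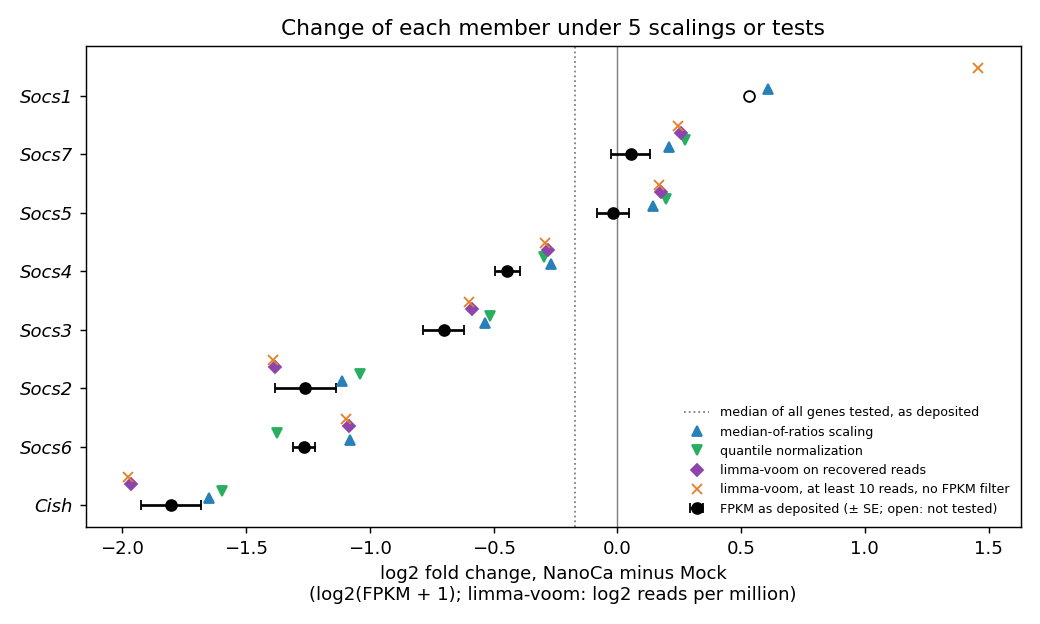
Log2 fold change of each member, NanoCa minus Mock, from the deposited FPKM (black, with SE; open circle for Socs1, not tested) and under 4 other scalings or tests. The 5 lower members stayed below 0 in each, Socs5 went from -0.017 to between 0.14 and 0.20, and Socs1 was above 0 in each setting plotted.

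The 2 libraries of a group differed by more than counting error for some members. The rate of reads in Mock replicate 2 was 1.34 times that in replicate 1 for Socs2 (exact 95% interval 1.21 to 1.47), 1.31 times for Cish (1.19 to 1.44) and 1.20 times for Socs3 (1.08 to 1.32). Among 10823 tested genes at 1 FPKM or more in both Mock libraries, 1.691%, 1.996% and 4.509% had a larger ratio than these. The ratios of Socs7 in Mock, at 0.883 (0.808 to 0.964), and of Socs6, at 0.959 (0.925 to 0.994), lay within the central 90% of those genes, 0.882 to 1.19. In NanoCa the interval held 1 for Cish, Socs2 and Socs3. It did not for Socs7, at 1.11 (1.01 to 1.22), and Socs4, at 0.933 (0.873 to 0.997), both within the central 90% of genes there, 0.875 to 1.17.

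Summed markers of granulocytes were lower in NanoCa too. The summed FPKM of 10 neutrophil markers was 65.9 and 78.0 in NanoCa and 253 and 441 in Mock replicates 1 and 2, and S100a8, S100a9 and Csf3r were lower in NanoCa. Another 3 called markers (Ngp, Ltf and Elane) passed the filter only through Mock. The sum of 8 mast cell and basophil markers was 2.82 and 2.95 in NanoCa and 11.3 and 19.4 in Mock, with Mcpt4 at 0 in every library. Cpa3 was the largest part of the Mock sum, at 5.52 and 8.78 FPKM. Gata2 went the other way, at 1.08 and 1.09 FPKM in NanoCa and 0.871 and 1.03 in Mock. All 4 tested members of that list passed the filter through 1 group only, so no count of calls is read from it. Cycling cell markers summed to 19.9 to 20.5 in NanoCa and 163 to 169 in Mock. Cycling markers were lower for 4 of 4, where 49.7% of all genes tested were lower and 21.7% higher. Macrophage markers summed to 2161 to 2220 in NanoCa and 1209 to 1225 in Mock (4 of 6 higher, 1 lower, with the interferon target Fcgr1 among them), and fibroblast markers to 37.6 to 39.3 and 7.29 to 7.48 (4 of 4 higher, Col3a1 having passed the filter only through NanoCa). The part of these differences in the SOCS values was not tested. Lymphoid and erythroid markers summed to 0.361 FPKM or less per list and library. Plasmacytoid markers summed to 8.29 to 8.86 in NanoCa and 6.47 to 6.75 in Mock, nearly all from Tcf4. Dendritic cell markers summed to 1223 to 1299 in NanoCa and 1922 to 1943 in Mock, with 6 of 7 tested lower and 1 higher (Clec9a, lower, passed the filter only through Mock). Of them, Itgax, H2-Ab1 and Cd74 were abundant, at 72.8 FPKM or more in every library, while Flt3, Zbtb46 and Xcr1 were at 0.635 or less.

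Within a library FPKM allows members to be ordered by level per length. By the deposited values Socs6 stood first in both groups and Socs4 second, and Socs1 last. Socs6 made up 59.9% and 59.4% of the summed family FPKM in NanoCa and 70.4% and 67.3% in Mock. The family sum was 84.8 and 81.3 FPKM in NanoCa and 174.8 and 175.2 in Mock, or 47.4% of Mock by mean (exact permutation test, two-sided, p = 0.33, the smallest that 2 against 2 allows). Without Socs6 the remaining 7 members summed to 34.0 and 33.0 against 51.8 and 57.3, or 61.4% of Mock (exact permutation p = 0.33). The Mock order was Socs6, Socs4, Cish, Socs3, Socs2, Socs5, Socs7 and Socs1, in which the libraries of only Cish and Socs3 overlapped among neighbours. The NanoCa order was Socs6, Socs4, Socs3, Socs5, Socs7, Cish, Socs2 and Socs1, in which Socs5 overlapped with Socs7 and Cish with Socs2.

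The order leans on the gene length behind each value. The length recovered for Socs6 was 1729 bases, that of a non-coding annotated transcript, where its longest annotated transcript has 6036. For Cish it was 2742 against 4697, for Socs7 7131 against 7015, and for the other 5 members it equalled the longest annotated transcript. In Socs2 that transcript is the one annotated for nonsense-mediated decay. Per length of the longest transcript, an alternative added after seeing the data, Socs6 was at 14.5 and 13.8 FPKM in NanoCa and 35.2 and 33.8 in Mock. It still stood first, with 30.6% and 30.1% of the family sum in NanoCa and 42.4% and 39.3% in Mock. Cish went from rank 3 to rank 5 in Mock and from rank 6 to rank 7 in NanoCa. Length cancels in the ratio of reads between groups, but not on log2(FPKM + 1), where the longest transcript gave -1.61 in place of -1.80 for Cish and -1.22 in place of -1.26 for Socs6. The family sum was then 55.3% of Mock in place of 47.4%.

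**Figure D3:**
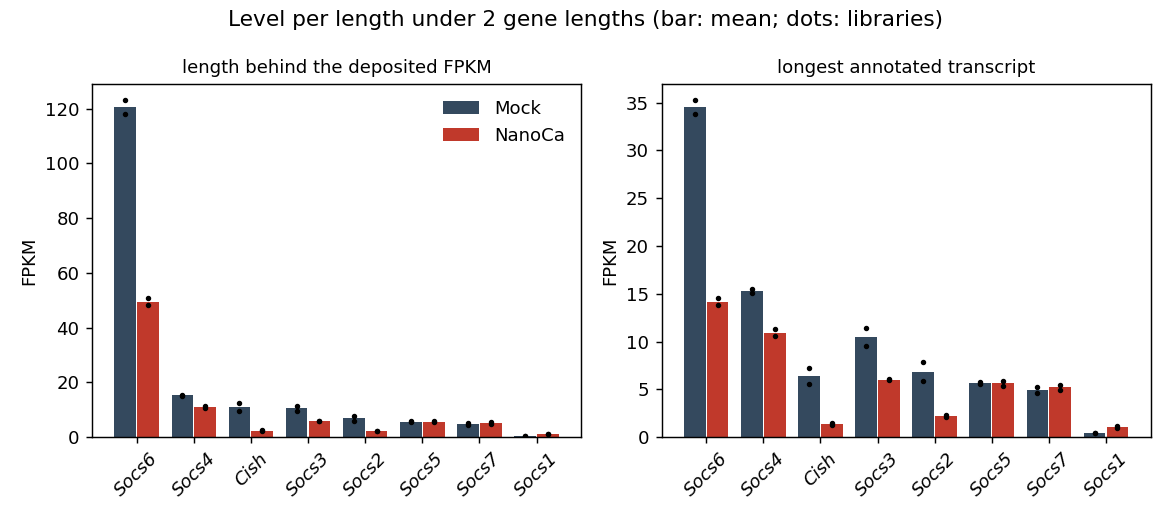
Mean FPKM (bars) and library values (dots) of the 8 members in Mock and NanoCa, per the length behind the deposited values (left) and per the longest annotated transcript (right; the 2 axes differ in scale). Socs6 falls from 120.5 to 34.5 FPKM in Mock between the panels and stays the highest member.

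Genes of the pathway that SOCS proteins act in were described from lists. Their counts stand beside 21.7% higher and 49.7% lower among all genes tested, or 32.9% and 32.8% with median-of-ratios scaling. Of 10 tested JAK, STAT and Irf9 genes, 4 were higher and 5 lower (median-of-ratios scaling gave 5 and 2). Their median log2 fold change was -0.03, where that of all genes tested was -0.17. Stat2 and Irf9, which take part in the type I interferon signal, rose. Stat2 went from 35.2 and 31.1 FPKM in Mock to 131.9 and 136.0 in NanoCa (log2 fold change 1.98, SE 0.06, limma adjusted p = 2.88e-06), and the log2 fold change of Irf9 was 0.70. Stat5a, one of the STAT5 genes, fell from 7.01 and 7.71 FPKM to 3.91 and 4.19 (log2 fold change -0.73, SE 0.07, limma adjusted p = 0.000179). Stat5b fell too (-0.33), as did Jak1 (-0.23), Tyk2 (-0.18) and Stat3 (-0.14), by amounts near the shift of all genes for the last 3. Jak3 (0.26) and Jak2 (0.21) rose, and Stat6 was at 0.07 (limma adjusted p = 0.121).

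Of 25 tested receptors of cytokines and growth factors, 10 were higher and 12 lower (median-of-ratios scaling gave 13 and 10), and their median was -0.03. Igf1r, among the lower genes, passed the filter only through Mock. Csf2rb, the signalling chain for GM-CSF and a chain that CIS is known to bind, fell from 690.5 and 690.6 FPKM to 375 and 391 (log2 fold change -0.85, SE 0.04, limma adjusted p = 1.30e-05). Its ligand-binding partner Csf2ra rose (0.40). The gp130 gene Il6st (-0.77), Il6ra (-0.77), Csf3r (-0.70) and Lifr (-1.05), receptors under SOCS3 control, fell. The largest falls were of Il12rb2 (-2.20) and Kit (-1.28), Insr also fell (-1.01), and Il7r rose (1.09). The type I interferon receptor genes Ifnar1 and Ifnar2, which SOCS1 limits, were at -0.03 and -0.01 (limma adjusted p = 0.466 and 0.877). Of the interferon gamma receptor genes, Ifngr1 fell (-0.43, limma adjusted p = 0.000208) and Ifngr2 rose (0.11, limma adjusted p = 0.0312).

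**Figure D4:**
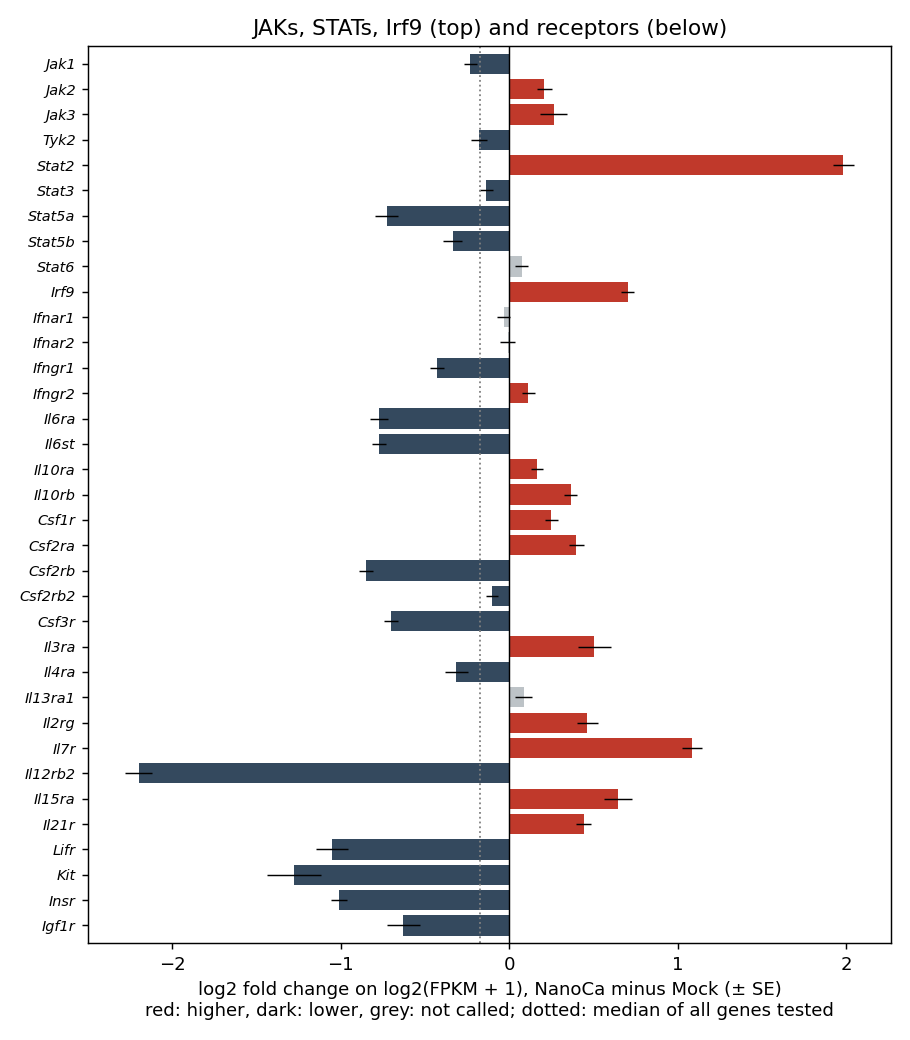
Log2 fold change (± SE) of the 10 tested JAK, STAT and Irf9 genes and the 25 tested receptors, coloured by call, with a dotted line at the median of all genes tested (-0.17). Stat2 reaches 1.98, and Il12rb2, Kit, Lifr and Insr lie below -1.

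Of 23 listed ligands of JAK-STAT receptors 7 were tested and called higher, but Ifnb1, Il6 and Il12b had a Mock mean under 1 FPKM and passed the filter only through NanoCa, where they were high. No count is therefore read from this list. The other 16 of the 23 listed lay under the filter, and 2 of these were at 0 in every library. Ifnb1, for interferon beta, was at 4.56 and 3.69 FPKM in NanoCa and 0.0857 and 0.0494 in Mock, from 82 and 63 reads against 2 and 1. Il12b was at 2.44 and 2.05 FPKM against 0.570 and 0.717, and Il6 at 1.97 and 1.615 against 0.845 and 1.04. No test result is read for these genes. Of ligands with a mean of at least 1 FPKM in both groups, Il27 rose by 1.02, Il15 by 0.85 and Osm, a gp130 cytokine, by 0.76.

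Described targets of the STATs did not move as 1 block. Among all genes tested, 21.7% were higher and 49.7% lower. All 15 listed targets of type I interferon rose (median 4.25) and 11 of 12 targets of interferon gamma did (median 1.28; Nos2 passed the filter only through NanoCa), with Ciita lower (-2.46). Earlier results of these data had shown both. Of 7 tested STAT5 targets, 5 rose and 2 fell: Ccnd1 (2.57), Ccnd2 (1.56), Bcl2l1 (1.09), Osm and Id1 (0.74) rose, while the kinase gene Pim1 (-0.59) and the interleukin 2 receptor chain Il2ra (-0.76) fell, as Cish and Socs2 did. Pim1 was at 28.0 and 29.8 FPKM in NanoCa and 39.9 and 48.2 in Mock, and so also higher in Mock replicate 2. Ccnd1 and Ccnd2 encode cyclins that other pathways induce as well, and Pim1 is also among the listed targets of STAT3. What moved any of these genes was not tested.

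Of 13 tested targets of interleukin 4 and STAT6, 4 rose and 7 fell, with a median of -0.29, where 21.7% of all genes rose and 49.7% fell. The chemokine Ccl17 (-5.09) and the lectins Mgl2 (-3.56) and Clec10a (-2.46) fell, and Arg1, for arginase 1, rose (4.36). Of 13 targets of STAT3 in responses to interleukin 10 or 6, 8 rose and 2 fell, with a median of 0.40. Il1rn, the interleukin 1 receptor antagonist, rose (2.76), as did Junb (1.15), Zfp36 (1.08) and Mcl1 (0.61), while Socs3 fell. All 14 NF-kB and Toll-like receptor feedback genes rose (Ptgs2 passed the filter only through NanoCa), with a median of 1.004, led by Cxcl2 (4.27), Dusp1 (3.08), Ptgs2 (2.80) and Tnf (2.67).

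**Figure D5:**
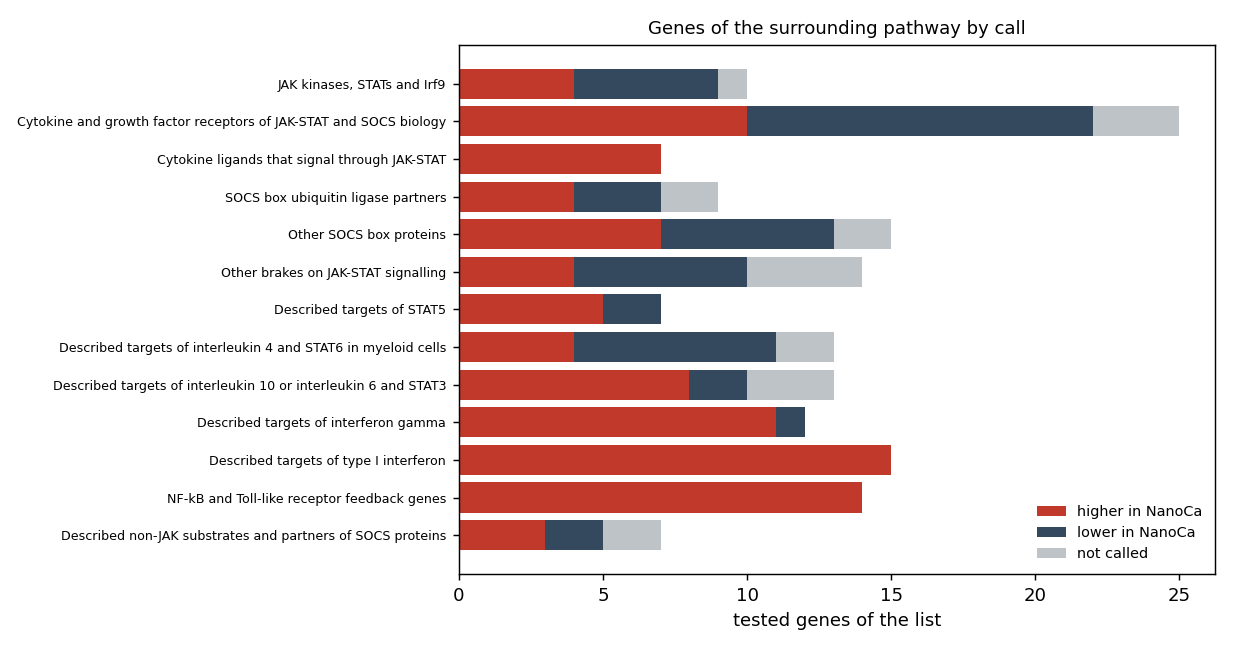
Number of tested genes of each list called higher (red), lower (dark) or not called (grey) in NanoCa. All 15 type I interferon targets were called higher, and receptors and JAK-STAT genes were divided. Ifnb1, Il6 and Il12b among the ligands, Nos2 among the interferon gamma targets and Ptgs2 among the NF-kB genes passed the filter only through NanoCa.

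Other brakes on the same pathway were also divided, with 4 of 14 higher and 6 lower (median-of-ratios scaling gave 5 and 2), and their median was -0.13. Usp18, the interferon-induced protease that blocks the interferon receptor from inside the cell, rose from 19.5 and 15.9 FPKM in Mock to 159 and 167 in NanoCa (log2 fold change 3.14, SE 0.09, limma adjusted p = 2.25e-06). The ubiquitin ligase gene Cblb rose (1.07) and its relative Cbl fell (-0.51). The phosphatase gene Ptpn1 fell (-0.47), and Ptpn2 was at 0.09 (limma adjusted p = 0.188).

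The ligase partners of the SOCS box changed little. Of 9, 4 were higher and 3 lower (median-of-ratios scaling gave 6 and 0), all between -0.26 and 0.29: Elob (0.29) and Eloc (0.23), the elongins that grip the box, rose, and the cullins Cul2 (-0.26) and Cul5 (-0.20) fell. Among 15 tested genes of other SOCS box proteins, 7 were higher and 6 lower (quantile normalization gave 6 and 3), and their median was -0.06. Spsb4 rose from 2.02 and 2.21 to 5.49 and 6.23 FPKM (1.14), Asb13 rose by 0.56, and Asb4 (-0.96) and Asb8 (-0.51) fell. Of 7 tested described substrates and partners of SOCS proteins other than JAKs, 3 were higher and 2 lower (median-of-ratios scaling gave 4 and 1). Rela (0.42) and Ptk2 (0.45) rose and the kinase gene Map3k5 fell (-0.67).

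The genes whose pattern over the 4 libraries was most like that of each member lower by at least 1 were found by the Euclidean distance between centred log2(FPKM + 1) values. For Cish they were Ltc4s (distance 0.103), H2-DMb2 (0.105) and Gpr171 (0.111). For Socs2 they were Pknox2 (0.0386), Kit (0.0967) and Rasgrp1 (0.119). For Socs6 they were Brip1 (0.0294), Tfec (0.0362) and Cit (0.0407). Pknox2 and Cit passed the filter only through Mock. Such likeness rests on 4 libraries, follows from how the genes were chosen and describes those libraries only.

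The primary transcript of miR-155, Mir155hg, was read because of the known link to Socs1, outside the rule for named genes and with its values in view. The mature miRNA and the seed match in Socs1 are shown from RefSeq (GRCm38.p6) and from the GENCODE transcript Socs1-202, with the seed (bases 2 to 8) and its complement in capitals.
miR-155-5p: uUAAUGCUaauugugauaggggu
Socs1 site: tgccgctgtgccgcAGCATTAa
The match was the only one in that transcript and began 20 bases after its stop codon. Mir155hg was at 3.18 and 2.71 FPKM in NanoCa and 0.873 and 1.20 in Mock, from 104 and 84 reads against 37 and 44. The groups did not overlap, and the gene rose (log2 fold change 0.96, SE 0.11, limma adjusted p = 0.000475). The hairpin row Mir155 was listed at 0 in every library, and mature miRNA was not measured by these libraries. Mir155hg and Socs1 were thus both higher in NanoCa.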

How the data were processed

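The deposited table holds FPKM values that the authors computed per gene, on build GRCm39 per the submitters' processing notes. RNA was extracted with trizol for SMARTER libraries, per the labels' protocols. Aligner and counter: the sources used here name none. Both replicate 3 columns are scaled means and were left out. FPKM times length moved in steps of 1 read, which gave whole reads (tolerance 1e-06) for 23928 of 23929 genes. Library totals were 23991472 and 22793565 (NanoCa) and 31131990 and 26975437 (Mock). GENCODE M21 (GRCm38) served for transcript lengths. Where an annotated length was a multiple of the recovered one, the annotated length was taken. Among genes with a mean of at least 1 FPKM, 99.1% of lengths were then annotated. The length of Socs7 matched no annotated transcript. Intervals are exact at 95% and cover counting error.

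Tests used limma 3.58.1 in R 4.3.3 (eBayes with a trend) and exact permutation in SciPy 1.17.1. On simulated reads limma called 48 of 50 genes changed 2-fold, 12 of 50 changed 1.25-fold and 20 of 10919 unchanged genes. Few genes changed there and the spread setting was the same for all genes, so that check does not cover data in which most genes move. Scaling, normalization, pseudocount, filters, limma-voom, a replicate block, all 6 columns as samples and leaving out each library were tried as alternatives. Members, lists, tests and alternatives were chosen with earlier results of these data known. Named genes are all members, up to 4 called genes of largest change per list, the JAK and STAT genes (1 gene of the lists is not reported here), listed genes the members act on or are induced by, and 3 genes nearest in pattern to members changed by a log2 fold change of at least 1.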

Additional observations from a re-analysis of the deposited data

How the results depend on the processing

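Cish, Socs2, Socs3, Socs4 and Socs6 stayed lower under every alternative that could be computed for them. There were 14 for each, and 13 for Socs2, which a mean FPKM of at least 5 leaves out. Among them, taking all 6 columns as samples counts the scaled means as libraries, so it adds no independent support. These members passed the threshold wherever each group kept 2 libraries or more. Their log2 fold changes ranged from -2.17 to -1.60, -1.59 to -1.04, -0.82 to -0.52, -0.49 to -0.27 and -1.37 to -1.08, with adjusted p of at most 0.00278, 0.00652, 0.00923, 0.0053 and 0.00057. Socs5 (-0.017) turned to 0.14 under median-of-ratios scaling, 0.20 with quantile normalization, 0.18 with limma-voom on recovered reads and 0.17 with limma-voom without the FPKM filter, and without 1 replicate it ranged from -0.073 to 0.039, with 0.0085 without Mock replicate 1. Socs7 passed the test at 0.27, 0.26 and 0.25 in the last 3 of those settings, and without 1 replicate it ranged from -0.021 to 0.13, with -0.0089 without NanoCa replicate 2. The higher members numbered 1 with no filter, 2 with quantile normalization, 2 with limma-voom and 3 with limma-voom without the filter, against 0. The log2 difference of Socs1 was 1.12 and 1.27 with pseudocounts of 0.1 and 0.01, 0.61 under median-of-ratios scaling and 1.46 with limma-voom without the filter, and it ranged from 0.47 to 0.60 without 1 replicate. The family sum was 54.0% of Mock with median-of-ratios scaling and 55.3% per longest transcript, against 47.4%. Over all genes 2409 were called higher and 5520 lower. Median-of-ratios scaling gave 3662 and 3651, and 3895 were higher with limma-voom or 4776 without the filter. Of 364 list counts under alternatives, 329 stayed within 1.5 times. Same-numbered replicates deviated together only weakly (r = 0.133 over 11116 genes, 2 pairs). The sources used here state no pairing, and 2 pairs cannot show whether there was one. With the replicate block no member changed its call, Cish for example staying at -1.80 (adjusted p = 9.57e-05), and 2538 genes were higher and 5691 lower. Causes of these shifts were not tested. Reads limit Socs1 most, with 34 to 79 per library.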

Other observations

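Listed genes under the filter were read from their reads. For 26 with at least 10 reads over the 4 libraries, an exact 95% interval of the ratio of read rates (counting error only) was computed. Intervals lay above 1 in NanoCa, below 1 or across 1. The shares over all low genes are not given, so no count by direction is read here. Rates were scaled by library totals. Some intervals ended near 1, such as those of Flt3 (0.402 to 0.973) and Spsb1 (0.957 to 1.64), so other scaling could change which intervals hold 1. Prlr, the prolactin receptor, a receptor that CIS and SOCS proteins limit, was counted 0 and 1 times in NanoCa and 90 and 66 times in Mock, a ratio Mock over NanoCa of 126 (22.2 to 4992). Asb2, a SOCS box protein of haematopoietic cells, had 0 and 1 against 35 and 42 (62.0, 10.8 to 2480). Ghr, the growth hormone receptor that SOCS2 limits, was counted 26 and 31 times in NanoCa and 9 and 7 times in Mock, a ratio NanoCa over Mock of 4.42 (2.51 to 8.25). Osmr, the oncostatin M receptor, was at 3.59 (2.63 to 4.97). Among ligands, Il10 had 40 and 20 reads against 2 and 3 (14.9, 6.04 to 47.6), Lif 55 and 69 against 19 and 16 (4.40, 3.00 to 6.60) and Csf3 15 and 12 against 1 and 0 (33.5, 5.53 to 1373). These genes were singled out from the 26 after their values were seen.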
